A study of Mus musculus with 42 samples.

Results

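The major histocompatibility complex (MHC) genes of the mouse, named H2, were compared between wild-type and *Tug1*-/- tissues. The genes were every one whose symbol begins with H2- together with *Cd74*, *B2m*, *Ciita*, *Tap1*, *Tap2*, *Tapbp* and *Nlrc5*, which made 45 of the 26653 genes listed per tissue. They comprised 2 classical class I heavy chains (class Ia), 25 non-classical class I heavy chains (class Ib), 9 class II chains, the class I light chain *B2m*, the invariant chain *Cd74*, the regulators *Ciita* and *Nlrc5*, the 3 peptide transport and loading genes *Tap1*, *Tap2* and *Tapbp*, and 2 further genes that carry the H2- name, *H2-Ke2* and *H2-Ke6*. PolyA RNA had been sequenced from 6 organs of male mice (heart, spleen, liver, eyes, prostate and testes) and from cultured embryonic fibroblasts (MEFs), in 42 samples of which 22 were wild-type and 20 were *Tug1*-/-. Testes had 4 wild-type and 3 *Tug1*-/- samples, prostate had 3 and 2, and every other tissue had 3 of each. Wild-type mice carried both normal *Tug1* alleles without *lacZ*, and in *Tug1*-/- mice (strain Tug1_tm1.1Vlcg) a *lacZ* reporter stood in place of the *Tug1* gene body on both alleles. Both genotypes came from the same colony, which was free of the neomycin cassette and of the cre transgene used to remove it and was on a C57BL/6J background labelled N3. The labels give no age of the animals, and the MEFs were at passage 2.

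Class I molecules stand on nearly all nucleated cells. A heavy chain such as *H2-K1* or *H2-D1* pairs with *B2m* and shows peptides from inside the cell to CD8 T cells, after the *Tap1*/*Tap2* transporter has carried the peptides into the endoplasmic reticulum and *Tapbp* (tapasin) has helped to load them. Class II molecules are chiefly made by B cells, dendritic cells and macrophages and show peptides from engulfed material to CD4 T cells. Their alpha and beta chains, such as *H2-Aa* and *H2-Ab1*, are assembled on the invariant chain *Cd74*. *H2-DMa* and H2-DMb exchange the remnant of that chain for a peptide, and *H2-Oa* with *H2-Ob*, which B cells make, restrains that exchange. *H2-Eb1* is a further beta chain, and *H2-Ea*, its alpha partner, was not among the genes compared. *Ciita* is the coactivator of class II genes, and *Nlrc5* serves class I genes in the same way.

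The promoters of genes of both classes typically hold a Y box, a CCAAT box that the factor NF-Y binds. Promoter sequence (RefSeq, GRCm38.p6, 250 bases before to 50 bases after the start) was found for 34 of the 45 genes. The letters CTGATTGG, on either strand, occurred in the promoter of 4 of 8 class II chains and 13 of 22 class I heavy chains. The share among the 27025 genes with a promoter was 4.70%. On the opposite strand these letters read CCAATCAG. The shorter core ATTGG, which is part of those letters, occurred on either strand in 8 of 8 class II chains, 19 of 22 class I heavy chains and 41.1% of all genes. The 8 letters read in the direction of the gene in the 4 class II promoters and on the opposite strand in the 13 class I promoters. Most of the 13 were promoters of H2-M genes. The strand of these letters need not be that of the Y box, since the search took any match. Stretches of 80 bases are shown 5′ to 3′ along the gene, with the 8 letters in capitals. They cover the 4 class II chains and the class I genes *H2-D1*, *H2-T23* and *H2-Q7*.
H2-Aa: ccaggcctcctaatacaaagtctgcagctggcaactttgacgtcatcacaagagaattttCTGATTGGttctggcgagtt
H2-Eb1: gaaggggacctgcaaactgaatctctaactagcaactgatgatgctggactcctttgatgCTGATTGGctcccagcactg
H2-Eb2: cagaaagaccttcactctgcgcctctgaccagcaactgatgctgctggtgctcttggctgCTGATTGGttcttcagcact
H2-Oa: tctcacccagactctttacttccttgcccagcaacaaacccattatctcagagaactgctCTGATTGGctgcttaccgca
H2-D1: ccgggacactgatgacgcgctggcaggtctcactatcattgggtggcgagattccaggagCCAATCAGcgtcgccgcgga
H2-T23: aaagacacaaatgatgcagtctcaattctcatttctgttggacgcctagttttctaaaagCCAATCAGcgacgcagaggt
H2-Q7: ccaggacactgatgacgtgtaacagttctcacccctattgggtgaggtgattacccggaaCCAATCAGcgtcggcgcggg
In GRCm38.p6 these lie at chr17:34287855-34287934 on the minus strand (*H2-Aa*), chr17:34305745-34305824 on the plus strand (*H2-Eb1*), chr17:34325512-34325591 on the plus strand (*H2-Eb2*), chr17:34092273-34092352 on the plus strand (*H2-Oa*), chr17:35262981-35263060 on the plus strand (*H2-D1*), chr17:36032734-36032813 on the minus strand (*H2-T23*) and chr17:35439079-35439158 on the plus strand (*H2-Q7*). The capitals began 51 bases before the start of *H2-Aa*, 62 before that of *H2-Eb1*, 103 for *H2-Eb2* and 46 for *H2-Oa*. They began 53 bases before the start of *H2-D1*, 52 for *H2-T23* and 16 for *H2-Q7*. In the stretches of *H2-D1* and *H2-Q7* the core ATTGG also occurred before the capitals, in the direction of the gene. Which match is the Y box of a class I promoter was not determined. A match of letters describes the sequence and was not tied to any difference between the genotypes.

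Levels are given in FPKM, fragments scaled by transcript length and by library size, as 1 value per genotype and tissue in which the replicates had already been combined. The spread between animals and the depth of the samples are therefore unknown, no difference below could be tested, and every value is a description of these samples. A difference is given as log2((*Tug1*-/- + 0.1)/(wild-type + 0.1)), which understates differences of low genes, and is positive where the *Tug1*-/- value is higher. Counts cover genes whose mean of both genotypes was at least 1 FPKM, and a gene is said to be past the limit where the values differ by more than 1.5 times, or 0.58 on the log2 scale. *Tug1* itself lay between 11.2 and 27.7 FPKM in wild-type tissues and between 0.00753 and 0.402 FPKM in *Tug1*-/- tissues. Marker genes of the labelled tissues were present, such as *Prm1* in testes, *Pbsn* in prostate, *Cryba1* in eyes, *Myh6* in heart, *Apoa1* in liver and *Col1a1* in MEFs, and the only such marker at 0 in its own tissue was *Alb*, which is listed at 0 in both liver groups. Markers of other tissues differed between some groups, with the pancreatic gene *Spink3* at 0.0653 FPKM in wild-type and 28.5 in *Tug1*-/- spleen, *Alb* at 4.85 and 0.0366 FPKM in the same tissue, *Cyp2e1* at 3.51 and 23.6 FPKM in prostate and at 9.54 and 45.3 FPKM in eyes, and the muscle gene *Actc1* at 56.6 and 108 FPKM in eyes. Their part in the values below was not tested.

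Of the 45 genes, 9 had a mean of at least 1 FPKM in all 7 tissues, 26 in 1 to 6 tissues and 10 in none. The 10 were all class Ib genes, most of them H2-M10 genes, known from the vomeronasal organ, and their highest single value was 0.745 FPKM, for *H2-M9* in *Tug1*-/- MEFs. The number of genes measured in this way was lowest in MEFs, at 14, and highest in spleen, at 34. Across tissues the sums of all FPKM ranged from 378014 to 1124495, so tissues are compared below only where their levels lie far apart.

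Class II genes were far higher in spleen than elsewhere. In wild-type tissues *H2-Aa* stood at 1985 FPKM in spleen, 93.2 in heart, 62.1 in prostate, 38.5 in liver, 20.2 in eyes, 6.43 in testes and 0.0215 in MEFs. *Cd74* followed the same order, with 3463 FPKM in wild-type spleen, 179 in heart, 89.1 in prostate, 82.6 in liver, 37.2 in eyes, 10.5 in testes and 0.429 in MEFs. Neighbouring tissues in this order cannot be told apart without the spread between animals. *Ciita* reached 46.0 FPKM in wild-type spleen and 1.31 in wild-type heart, and its mean stayed under 1 FPKM in the other 5 tissues. The chains that restrain or complete peptide exchange in B cells were narrower still, since *H2-Ob* was at 229 FPKM in wild-type spleen, 6.27 in heart and at most 0.594 in the other wild-type tissues.

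Class I genes were spread more evenly. *H2-K1* ranged over the wild-type tissues from 11.5 FPKM in MEFs and 40.6 in eyes to 838 in spleen and 1067 in liver, and *B2m* from 35.7 FPKM in testes to 3454 in liver. In wild-type testes, a tissue rich in germ cells, *H2-D1* was at 10.1, *Tap1* at 0.537 and *Tap2* at 0.748 FPKM, each the lowest of the 7 wild-type tissues, while *H2-K1* was at 42.5 and *Tapbp* at 70.0 FPKM. *H2-Q10*, a secreted class I molecule made by hepatocytes, was at 2019 FPKM in wild-type liver and at most 6.66 in the other wild-type tissues. The class Ib gene *H2-Q2* was at 10.7 FPKM in wild-type prostate, 3.22 in spleen and 1.06 in liver.

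**Figure D1:**
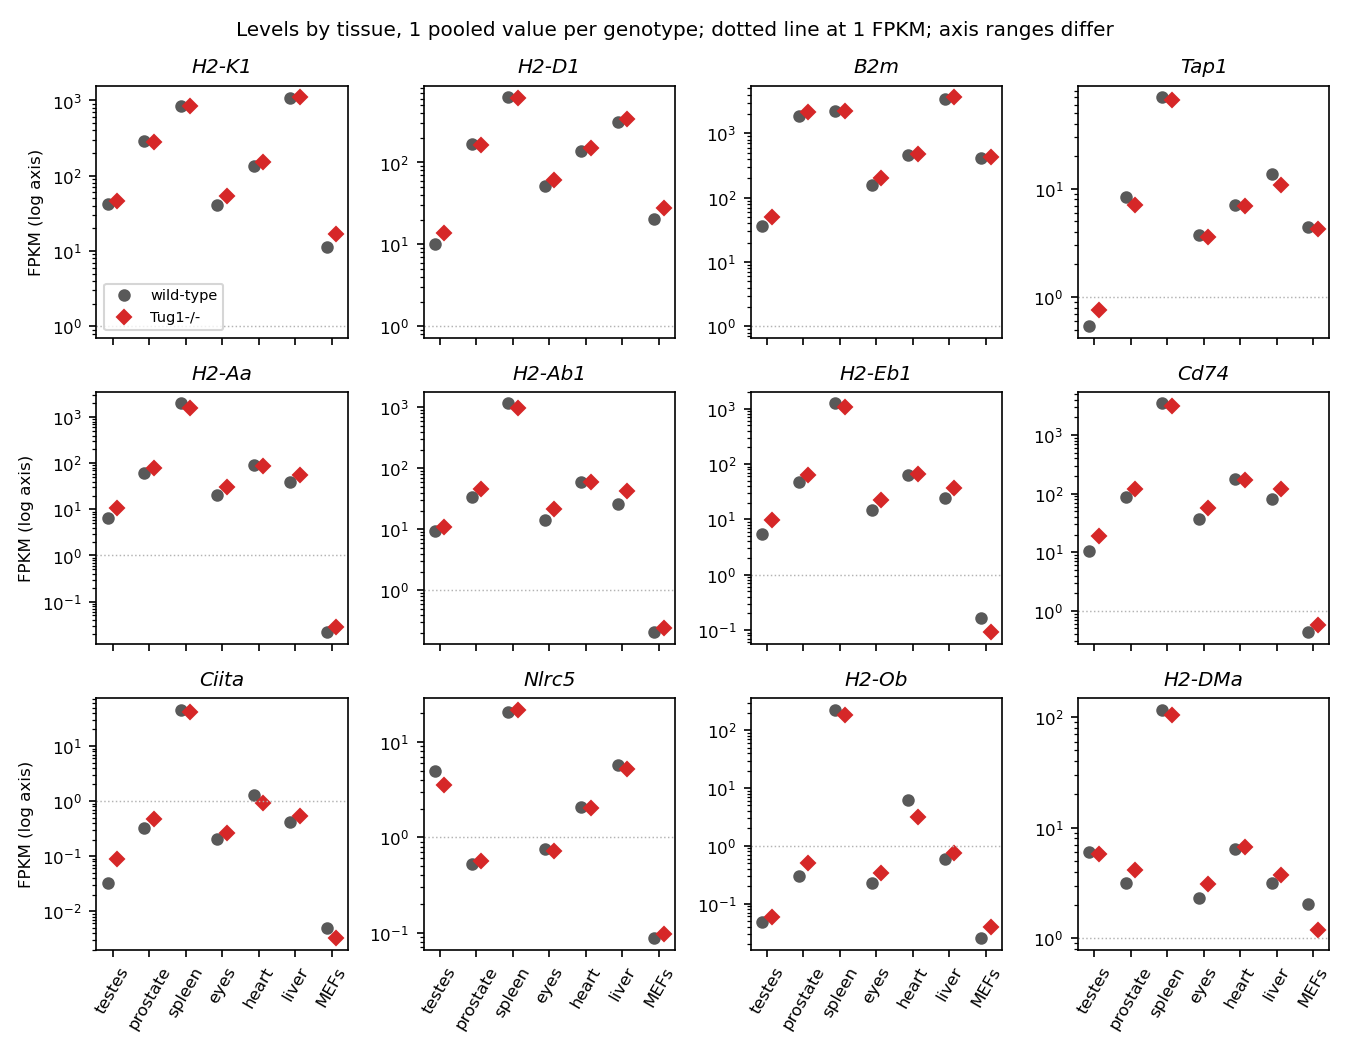
FPKM on a log axis for 12 genes in the 7 tissues, with 1 pooled value for wild-type (grey circles) and 1 for *Tug1*-/- (red diamonds), no error bars because no replicate values were given, and axis ranges that differ between panels. *H2-Aa*, *H2-Ab1*, *H2-Eb1* and *Cd74* peak in spleen and are below 1 FPKM in MEFs, and *H2-Ob* in heart shows a visible gap between genotypes, 6.27 against 3.18 FPKM.

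Differences between genotypes were modest throughout. Of the 162 pairs of a gene and a tissue that reached a mean of 1 FPKM, 12 were past the limit with *Tug1*-/- higher and 4 with *Tug1*-/- lower, and they belonged to 11 genes. In testes 4 of 18 genes were past the limit and higher in *Tug1*-/-, against 1.17% of all genes measured, and 0 were lower, against 0.753%. In eyes 5 of 21 were higher, against 2.64% of all genes, and 0 lower, against 0.867%. In liver 2 of 26 were higher, against 2.55%, and 0 lower, against 2.25%. In heart 0 of 28 were higher, against 0.874%, and 3 were lower, against 1.44%. In MEFs 1 of 14 was higher, against 0.975%, and 1 lower, against 2.20%. In prostate 0 of 21 were past the limit in either direction, against 2.40% higher and 0.682% lower among all genes, and in spleen 0 of 34, against 4.91% and 1.10%. The counts are small, and genes that are made together in the same cells do not move independently. Of all genes measured, 36.4% were higher in *Tug1*-/- testes, 39.1% in prostate, 45.5% in spleen and 43.5% in eyes. In heart 58.6% were higher, in liver 45.5% and in MEFs 49.8%. Counts of genes by direction below stand beside these shares and not beside an even split.

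**Figure D2:**
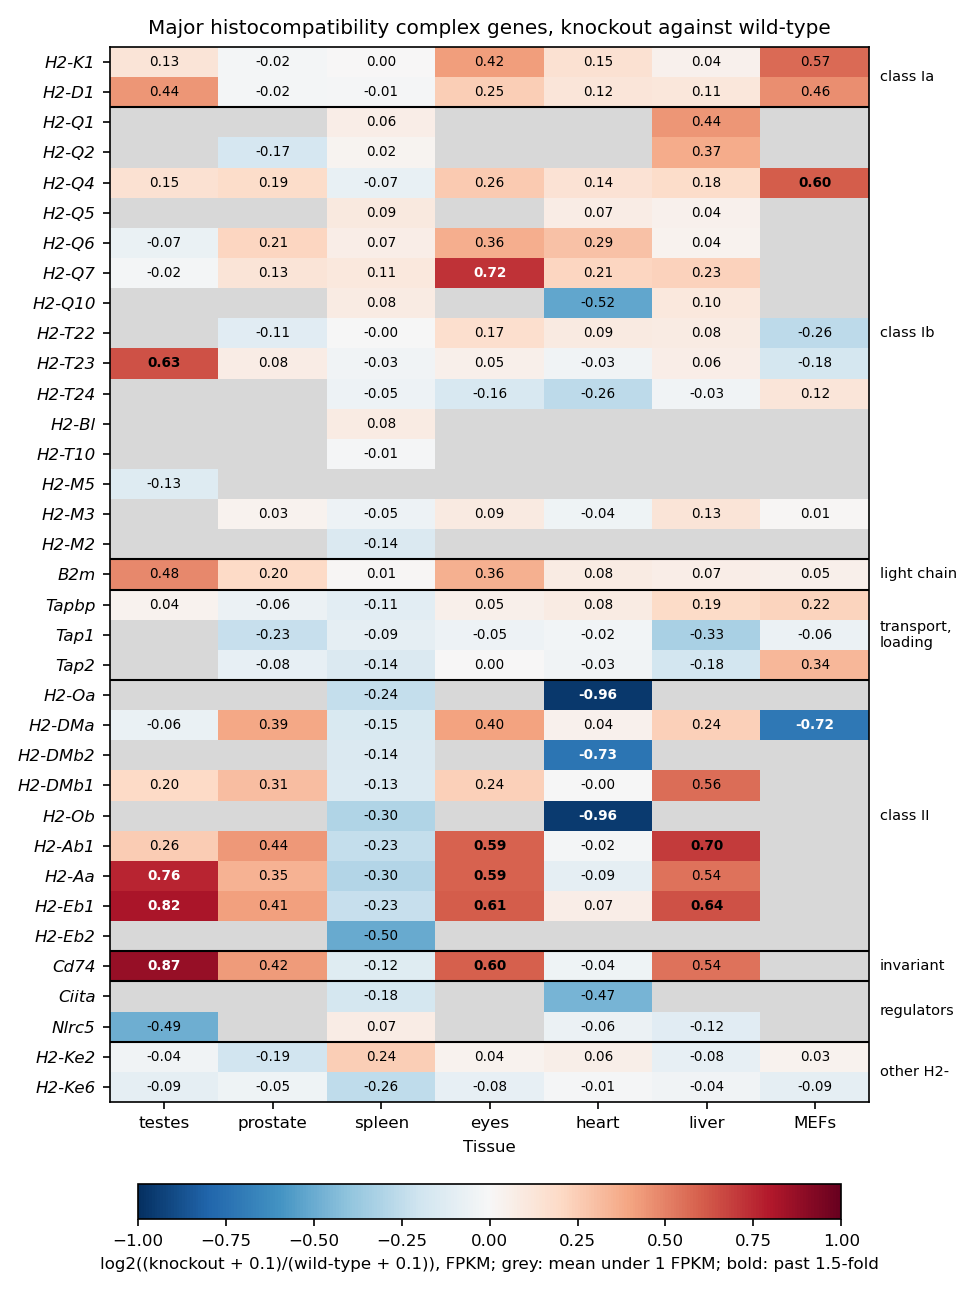
Difference between genotypes on the log2 scale for the 35 genes with a mean of at least 1 FPKM in any tissue (rows, by class and in the order of the chromosome within a class) in the 7 tissues (columns), from blue (lower in *Tug1*-/-) through white to red (higher), with grey for means under 1 FPKM and bold for values past 1.5-fold. The class II block and *Cd74* are red in testes (except *H2-DMa*, at -0.06), prostate, eyes and liver and blue in spleen, and *H2-Oa*, *H2-Ob* and *H2-DMb2* stand out in heart at -0.96, -0.96 and -0.73.

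Class II genes were higher in *Tug1*-/- testes, prostate, eyes and liver, and lower in *Tug1*-/- spleen. The median difference of the class II chains was 0.26 in testes (5 chains), 0.39 in prostate (5), 0.59 in eyes (5) and 0.56 in liver (5), beside medians of all genes of -0.06, -0.04, -0.02 and -0.02. In spleen it was -0.23 over 9 chains, all of them lower in *Tug1*-/-, beside -0.02 for all genes. Scaling both genotypes to the same sum of FPKM left the sign of these medians in each of the 5 tissues.

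*H2-Eb1* was the only gene of the 45 past the limit in the same direction in 3 tissues, while 73 of the 19742 genes measured in any tissue, or 0.370%, were so. It was at 5.43 FPKM in wild-type and 9.63 in *Tug1*-/- testes, a difference of 0.82. In eyes it went from 14.7 to 22.4 FPKM (0.61), and in liver from 24.0 to 37.3 FPKM (0.64). The other main class II chains, *H2-Aa* and *H2-Ab1*, lay on the same side in these tissues. *H2-Aa* was at 6.43 FPKM in wild-type and 10.98 in *Tug1*-/- testes (0.76), at 20.2 and 30.4 in eyes (0.59) and at 38.5 and 56.0 in liver (0.54). *H2-Ab1* was at 9.27 and 11.1 FPKM in testes (0.26), at 14.1 and 21.3 in eyes (0.59) and at 26.0 and 42.1 in liver (0.70). The invariant chain *Cd74* was at 10.5 FPKM in wild-type and 19.2 in *Tug1*-/- testes (0.87), the widest gap of these genes, at 37.2 and 56.2 in eyes (0.60) and at 82.6 and 120 in liver (0.54). The 4 values past the limit in eyes for *H2-Aa*, *H2-Ab1*, *H2-Eb1* and *Cd74* were between 1.504-fold and 1.522-fold, just over the limit, and all 4 fell short of it once both genotypes were scaled to the same sum.

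In prostate the same genes were higher by 0.35 to 0.44 without passing the limit, with *H2-Aa* at 62.1 FPKM in wild-type and 79.2 in *Tug1*-/- and *Cd74* at 89.1 and 120 FPKM. The peptide exchange chain *H2-DMa* was at 3.13 and 4.13 FPKM in prostate (0.39), 2.31 and 3.08 in eyes (0.40), 3.18 and 3.77 in liver (0.24) and 6.07 and 5.81 in testes (-0.06). *H2-DMb1* was at 2.19 and 3.27 FPKM in liver (0.56) and higher by 0.20 to 0.31 in testes, prostate and eyes. *H2-DMb1* and *H2-DMb2* share 11.3% and 10.3% of their windows of 100 bases with each other, so reads can be assigned to either, whereas *H2-Aa*, *H2-Ab1*, *H2-Eb1* and *Cd74* share none with any other annotated gene.

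Macrophage markers were mostly higher in the same tissues. Of 8 macrophage genes, the 3 complement chains *C1qa*, *C1qb* and *C1qc*, *Csf1r*, *Cd68*, *Emr1* (the F4/80 antigen), *Fcgr1* and *Mertk*, 7 had a mean of at least 1 FPKM in eyes and all 7 were higher in *Tug1*-/-, with a median of 0.41. In testes all 7 measured were higher (median 0.24), in prostate 6 of 7 (median 0.53) and in liver 7 of 8 (median 0.45). *C1qa* was at 46.0 FPKM in wild-type and 66.7 in *Tug1*-/- liver (0.53), at 20.1 and 27.6 in eyes (0.46), at 19.0 and 27.8 in prostate (0.55) and at 7.32 and 9.25 in testes (0.33). In these 4 tissues *Emr1* was the only macrophage gene past the limit, at 8.84 and 14.9 FPKM in liver (0.75) and at 1.76 and 2.84 in prostate (0.66). Of 5 leukocyte genes, all 5 were higher in prostate, eyes and liver and 2 of the 3 measured in testes, with *Ptprc* (CD45) at 2.95 and 4.46 FPKM in liver (0.58), and at 1.37 and 1.68 in eyes (0.28). The leukocyte surface gene *Cd52* was past the limit, at 115 and 204 FPKM in prostate (0.83) and at 14.5 and 23.5 in liver (0.69). The part of these cells in the class II values was not tested. In bulk tissue, fewer cells of a type and less RNA per cell cannot be told apart.

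B cell genes were too low to compare in most of these tissues. Of 7 B cell genes, none reached a mean of 1 FPKM in testes, prostate or eyes and only *Cd79b* did in liver, where it was at 1.17 and 1.27 FPKM. The summed FPKM of the 7 was 1.797 in wild-type and 1.99 in *Tug1*-/- testes, 2.18 and 2.50 in prostate, 1.68 and 1.57 in eyes and 4.01 and 3.65 in liver. Dendritic cell genes were low as well. Of 7, 0 had a mean of at least 1 FPKM in prostate, 2 did in testes, both lower in *Tug1*-/- (median -0.21), 2 in eyes, both higher (median 0.28), and 1 in liver, *Zbtb46*, at 2.36 and 1.91 FPKM (-0.29). No gene of the dendritic cell, T cell, NK cell or fibroblast lists with a mean of at least 1 FPKM was past the limit in any tissue.

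**Figure D3:**
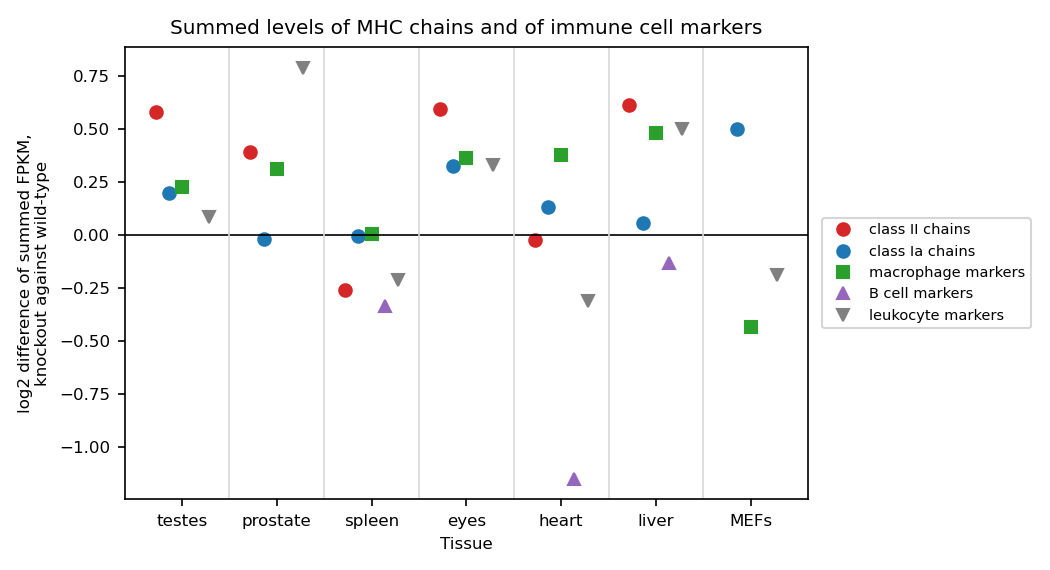
Log2 difference between *Tug1*-/- and wild-type of the summed FPKM of *H2-Aa*, *H2-Ab1* and *H2-Eb1* (class II chains), of *H2-K1* and *H2-D1* (class Ia chains) and of the macrophage, B cell and leukocyte marker lists in each of the 7 tissues. Points are left out where the class II sum or every marker of a list was under 1 FPKM. The class II sums lie at 0.58 in testes, 0.39 in prostate, 0.60 in eyes and 0.62 in liver beside macrophage sums of 0.23, 0.31, 0.36 and 0.48, and the B cell sum lies at -1.15 in heart.

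Heart showed another pattern. The main chains hardly differed, with *H2-Aa* at 93.2 FPKM in wild-type and 87.6 in *Tug1*-/- (-0.09), *H2-Ab1* at 59.7 and 59.0 (-0.02), *H2-Eb1* at 63.1 and 66.0 (0.07) and *Cd74* at 179 and 173 (-0.04). The 3 genes past the limit were class II chains that are typical of B cells. *H2-Ob* was at 6.27 FPKM in wild-type and 3.18 in *Tug1*-/- heart (-0.96), its partner *H2-Oa* at 1.57 and 0.758 FPKM (-0.96), and *H2-DMb2* at 4.12 and 2.44 FPKM (-0.73). *H2-Eb2*, whose mean was under 1 FPKM, was at 0.569 and 0.230 FPKM (-1.02), and *Ciita* was at 1.31 and 0.922 FPKM (-0.47). *H2-DMa* and *H2-DMb1*, which macrophages also make, were at 6.45 and 6.65 FPKM and at 4.04 and 4.03 FPKM.

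B cell markers differed in the same direction. All 6 B cell genes with a mean of at least 1 FPKM in heart were past the limit and lower in *Tug1*-/-, with a median of -1.09. *Cd79b*, a chain of the B cell receptor complex, was at 12.4 FPKM in wild-type and 5.38 in *Tug1*-/- heart (-1.19). *Cd79a* was at 9.51 and 4.499 FPKM (-1.06) and *Ms4a1* (CD20) at 4.94 and 1.91 FPKM (-1.33). The sum of the 7 B cell genes was 36.6 FPKM in wild-type and 16.5 in *Tug1*-/- heart. Macrophage genes lay on the other side, with all 8 higher in *Tug1*-/- heart, a median of 0.32 and *C1qa* at 63.2 and 85.2 FPKM (0.43). The 5 leukocyte genes were all lower in *Tug1*-/- heart, by a median of 0.37 on the log2 scale. Whether 1 heart sample carries most of the B cell transcripts cannot be seen in pooled values, and the part of B cell number in the *H2-Ob*, *H2-Oa* and *H2-DMb2* values was not tested.

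In spleen, the tissue with the highest class II levels, all 9 chains were lower in *Tug1*-/- and none was past the limit. *H2-Aa* was at 1985 FPKM in wild-type and 1617 in *Tug1*-/- (-0.30), *H2-Ab1* at 1156 and 982 (-0.23), *H2-Eb1* at 1247 and 1064 (-0.23) and *Cd74* at 3463 and 3180 (-0.12). The B cell chains *H2-Ob*, at 229 and 186 FPKM (-0.30), and *H2-Oa*, at 90.8 and 76.8 (-0.24), lay on the same side, and *H2-Eb2* showed the widest gap, at 41.4 and 29.2 FPKM (-0.50). All 7 B cell genes were lower in *Tug1*-/- spleen, with a median of -0.29, among them *Cd79a* at 420 and 331 FPKM (-0.35) and *Fcer2a* (CD23) at 112 and 73.5 FPKM (-0.61), the only one past the limit. Macrophage genes were split, with 4 of 8 higher and a median of 0.0046, and 3 of 6 T cell genes were higher, with a median of 0.0012. *Spink3* and *Alb*, given above, differed between the same spleen groups.

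In MEFs the only class II chain with a mean of at least 1 FPKM was *H2-DMa*, at 2.03 FPKM in wild-type and 1.20 in *Tug1*-/- (-0.72). *H2-Aa*, *H2-Ab1* and *H2-Eb1* were at most at 0.236 FPKM in either genotype. Fibroblast cultures can hold macrophages, and macrophage genes were present in the MEFs at levels near those of whole organs, with *C1qa* at 37.3 and 26.7 FPKM (-0.48). Of the 8 macrophage genes 7 were lower in *Tug1*-/- MEFs, with a median of -0.46, and the Fc receptor gene *Fcgr1* was past the limit, at 1.61 and 0.971 FPKM (-0.68). The leukocyte gene *Laptm5* was at 17.1 and 11.1 FPKM (-0.62), and the lysosomal protease *Ctss*, which trims the invariant chain, was at 18.4 and 11.8 FPKM (-0.63). Their part in the *H2-DMa* value was not tested.

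Class I genes in MEFs lay the other way. *H2-K1* was at 11.5 FPKM in wild-type and 17.03 in *Tug1*-/- MEFs (0.57), *H2-D1* at 20.2 and 27.9 FPKM (0.46) and the class Ib gene *H2-Q4* at 2.004 and 3.0998 FPKM (0.60), the only one past the limit. *B2m*, at 409 and 423 FPKM (0.05), and *Tap1*, at 4.46 and 4.26 FPKM (-0.06), did not share that gap, and *H2-T22* was at 20.8 and 17.4 FPKM (-0.26) and *H2-T23* at 5.02 and 4.43 FPKM (-0.18). Genes of the type I interferon response were also higher in *Tug1*-/- MEFs, in 8 of 8 measured with a median of 0.42. Among them *Isg15* was at 4.61 and 7.98 FPKM (0.78). The chemokine *Cxcl10*, of the interferon gamma list, of which 7 of 10 measured were higher, was at 2.67 and 6.26 FPKM (1.20). *Ifng* was listed at 0 in both MEF groups, and *Nlrc5* was at 0.0868 and 0.0960 FPKM.

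The class I heavy chain median lay closer to 0 than the class II median in every tissue but heart, where they were 0.09 and -0.05. The median difference of the class I heavy chains was 0.25 in eyes (9 genes), 0.13 in testes (7), 0.12 in MEFs (7), 0.10 in liver (13), 0.09 in heart (11) and 0.03 in prostate (9). In spleen it was 0.0011 over 16 genes, of which 8 were higher and 8 lower, and its sign turned to -0.03 when both genotypes were scaled to the same sum. The class II median lay above the class I median by 0.12 in testes, 0.35 in prostate, 0.34 in eyes and 0.45 in liver, and was lower than it in spleen, heart and MEFs, at -0.24, -0.14 and -0.84, the last from 1 chain. These gaps between classes were not tested.

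In eyes 8 of 9 class I heavy chains were higher in *Tug1*-/-. *H2-K1* was at 40.6 FPKM in wild-type and 54.2 in *Tug1*-/- eyes (0.42), *H2-D1* at 51.2 and 60.8 FPKM (0.25) and *B2m* at 158 and 202 FPKM (0.36). *H2-Q7* was past the limit, at 1.16 and 1.97 FPKM (0.72), and shares 11.98% of its windows of 100 bases with other genes, and 5.56% with *H2-Q10*, the most with any single gene. *Tap1* and *Tap2* did not go with the heavy chains, at 3.75 and 3.62 FPKM and at 4.98 and 4.99 FPKM. In testes *H2-T23*, the non-classical chain that shows leader peptides of other class I chains, was past the limit at 1.36 and 2.17 FPKM (0.63), *H2-D1* was at 10.1 and 13.7 (0.44) and *B2m* at 35.7 and 49.8 (0.48), while *H2-K1* was at 42.5 and 46.6 (0.13). The class I coactivator *Nlrc5* lay on the other side in testes, at 4.99 and 3.53 FPKM (-0.49), and the 6 germ cell genes were all slightly lower there, with a median of -0.19. Of all genes measured in testes only 36.4% were higher in *Tug1*-/-, and their median was -0.06.

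In prostate, spleen, heart and liver the classical chains were close to equal in the values as given. *H2-K1* was at 287 FPKM in wild-type and 284 in *Tug1*-/- prostate, 838 and 841 in spleen, 136 and 151 in heart and 1067 and 1097 in liver, and *H2-D1* at 167 and 165, 622 and 618, 139 and 151, and 309 and 335. In prostate and spleen the 4 differences were close to 0, from -0.02 upwards. Scaling to the same sum turned the sign of *H2-K1* in both tissues and of *H2-D1* in prostate. In liver the same scaling moved *H2-K1* from 0.04 to 0.20 and *H2-D1* from 0.11 to 0.27, so near equality there depends on the scale. The liver gene *H2-Q10* was at 2019 and 2171 FPKM in liver (0.10). *Tap1* was at 13.7 and 10.9 FPKM in liver (-0.33) and at 8.41 and 7.14 in prostate (-0.23), *Tap2* at 11.1 and 9.77 in liver (-0.18), and *Tapbp* at 44.9 and 51.3 in liver (0.19).

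The genes around the MHC genes were taken by pathway. The immunoproteasome cuts the peptides for class I. Of its 5 listed genes, the subunits *Psmb8*, *Psmb9* and *Psmb10* and the activator subunits *Psme1* and *Psme2*, none was past the limit in any tissue. Their median was 0.36 in testes, where 3 were measured, and between -0.06 and 0.09 in the other 6. The 5 loading partners of class I and the 7 subunits of the factors that bind class II promoters also had no gene past the limit in any tissue. In spleen the median of the loading partners was 0.29, with the chaperone *Calr* at 207 and 267 FPKM (0.37), beside the *Spink3* values given above. Among 4 genes that process peptides for class II, the medians were 0.49 in testes and 0.29 in liver and -0.35 in MEFs, and only *Ctss* in MEFs was past the limit. The 13 interferon gamma pathway genes had 1 past the limit in liver, the chemokine *Cxcl9*, at 4.38 and 7.20 FPKM (0.70), with 9 of 11 measured higher there and a median of 0.23, and *Cxcl10* in MEFs. Type I interferon genes had a median of -0.14 in eyes, where 0 of 9 were higher, of -0.26 in spleen and of 0.11 in heart, where 10 of 11 were higher. In spleen, where 3 of 13 were higher, *Rsad2* was past the limit at 15.3 and 35.6 FPKM (1.21) and *Isg15* at 34.5 and 55.6 FPKM (0.69), and *Ifit3* was lower, at 11.2 and 5.83 FPKM (-0.93). Elsewhere the values past the limit were those of *Stat2* in testes, at 3.86 and 2.03 FPKM (-0.89), *Ifit3* in prostate, at 1.46 and 2.57 FPKM (0.78), and in liver *Oas1a*, at 0.759 and 1.46 FPKM (0.86), and *Usp18*, at 4.38 and 7.01 FPKM (0.66), beside *Isg15* in MEFs.

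MHC-like molecules outside the H2 names showed scattered values past the limit. The stress ligand *Ulbp1*, which the receptor NKG2D recognises, was at 2.31 and 5.06 FPKM in MEFs (1.10) and at 1.90 and 3.14 in spleen (0.70). Its relatives *Raet1d* and *Raet1e* lay the other way in liver, at 29.1 and 16.7 FPKM (-0.80) and at 10.0 and 6.43 FPKM (-0.63). The lipid-presenting *Cd1d1* was at 1.59 and 2.57 FPKM in eyes (0.66), and *Procr* was at 3.05 and 1.90 FPKM in heart (-0.65). The neonatal Fc receptor chain *Fcgrt* and the iron regulator *Hfe*, which both pair with *B2m*, were within the limit in all 7 tissues.

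A background labelled N3, few backcrosses, leaves room for segments of another strain. The MHC is in general among the most variable regions between strains. Whether it differed between the strains behind this colony is not known here. Of the 45 genes, 41 lie on chromosome 17, between 33915899 and 37483552 (mm10), *Ciita* lies on chromosome 16, *Nlrc5* on 8, *B2m* on 2 and *Cd74* on 18, and none lies on chromosome 11 with *Tug1*. Their direction over tissues was compared with that of all genes. Of the 25 genes measured in at least 3 tissues, 4 had the same sign in each of them, or 16.0%, against 8.33% of the 13203 genes measured so. Of the 9 measured in all 7 tissues, 2 had 1 sign throughout, or 22.2%, against 3.43% of 8874 genes. These 2 were *B2m*, which lies outside chromosome 17, and *H2-Ke6*, which does not encode an MHC chain. *B2m* was higher in *Tug1*-/- in all 7 tissues, by 0.01 to 0.48, *H2-Ke6* lower in all 7, by -0.26 to -0.01, *Tap1* lower in 6, by -0.33 to -0.02, and *H2-Q5* higher in 3, by 0.04 to 0.09. None of these 4 was past the limit anywhere, and scaling to the same sum turned at least 1 tissue for each of them. Centring on the median of all genes kept their sign in every tissue. The class II chains were higher in some tissues and lower in others.

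The interval also holds 179 other genes. Between 74 in MEFs and 104 in spleen were measured, and between 1 and 5 were past the limit in a tissue. Their share was above that of all genes in testes (3.41% against 1.92%) and prostate (4.60% against 3.08%). The same held in eyes (5.15% against 3.51%) and heart (4.35% against 2.32%). It was below that of all genes in spleen (4.81% against 6.02%), liver (3.75% against 4.81%) and MEFs (1.35% against 3.18%). The counts are small and were not tested. Only *Hspa1b*, a heat shock gene that stress induces, was past the limit in the same direction in 3 or more tissues. It was at 3.73 and 11.04 FPKM in liver (1.54), 9.34 and 26.2 in prostate (1.48), 2.27 and 4.34 in heart (0.90) and 1.91 and 2.95 in spleen (0.60). Its neighbour *Hspa1a* was at 2.36 and 8.02 FPKM in prostate (1.72), and reads can be split between the 2, whose coding sequences are nearly identical. *Gm20481*, listed at the same coordinates as *Hspa1a*, was at 2.23 and 6.81 FPKM in prostate (1.57). Both were past the limit in prostate and heart, so the interval counts hold entries that are not separate measures. Expression values hold no alleles, so strain segments were not tested and cannot be told apart from the genotype where a segment was inherited with it.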

How the data were processed

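PolyA RNA of 42 samples had been sequenced from unstranded TruSeq libraries. Per the labels, base calls came from CASAVA 1.8.2, alignments from TopHat2 and comparisons from Cuffdiff on mm10. The authors' deposited table gives 1 FPKM value per genotype and tissue, with replicates combined. The unit is taken from the Cuffdiff layout and is not named in the header. The table also holds fold changes, test statistics, p-values and q-values computed by the authors, which were not used. Rows for brain, which has no sample in the labels, were not analysed here.

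Groups came from the labels. The difference was log2 with a pseudocount of 0.1 FPKM, over genes with a mean of at least 1 FPKM, and the limit was 1.5-fold. Without values per sample no error, test, paired comparison or replicate check could be made, and depth is unknown. The genes and lists were chosen with earlier results of these data known. Genes named with values are the 12 central ones, every member past the limit, and a choice of list genes made after their values were seen. Starts were converted to count from 1. Shared windows of 100 bases came from GENCODE vM21 transcripts and promoters from RefSeq. Steps were tested on simulated data. The alternatives were pseudocounts of 1 and 0.01, minimum means of 0.1 and 5 FPKM or none, scaling to a sum of 1000000, centring on the median of all genes and a limit of 2-fold. Python 3.11.15, numpy 2.4.6, pandas 2.3.3 and matplotlib 3.10.9 were used.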

Additional observations from a re-analysis of the deposited data

How the results depend on the processing

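No paired analysis was possible because only pooled values were given, and no replicate could be left out for the same reason. The medians of the classes were compared in 97 cases, of which 0 moved by 1.5-fold, the largest shift was 0.575 (class II in MEFs with no minimum mean) and 5 had the other sign, namely class I in spleen at -0.0062 with a minimum mean of 0.1 FPKM, at -0.010 with one of 5 FPKM and at -0.031 after scaling, class I in prostate at -0.018 and class II in heart at 0.014, both with a minimum mean of 5 FPKM. Of 525 differences of single genes 0 moved by 1.5-fold, and the largest shift was 0.413. Scaling to the same sum shifted the median of all genes by 0.16 in liver and by less than 0.1 in the other tissues.

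Of 112 counts of MHC genes past the limit, 91 stayed within 1.5 times of the count given. With a pseudocount of 1, 0 genes were higher in eyes, 1 lower in heart, and 0 higher and 0 lower in MEFs. With a minimum mean of 0.1 FPKM, 1 was lower in testes and 2 higher in prostate, and with no minimum 1 was lower in testes, 3 higher in prostate and 1 lower in liver. With a minimum mean of 5 FPKM, 0 were lower in heart and 0 higher and 0 lower in MEFs. After scaling to the same sum, 1 was higher in eyes, 6 in liver and 2 in MEFs. With a limit of 2-fold, 0 were past it in testes, eyes, heart, liver and MEFs.

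Over all tissues, the other genes of the chromosome 17 interval gave 22 values higher and 3 lower in *Tug1*-/-, an outcome whose alternatives were added after seeing the data. Higher values numbered 14 with a pseudocount of 1, and 39 and 13 were higher and lower with a minimum mean of 0.1 FPKM, 7 and 1 with one of 5 FPKM, 42 and 19 with none, and 8 and 1 with a limit of 2-fold. The cause of these changes was not tested beyond the settings themselves. Values near 1 FPKM, such as *H2-Oa* in heart and *H2-Q7* in eyes, rest on an unknown number of reads.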

Other observations

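Class Ib genes that are low in most tissues had their own places. *H2-M5* had a mean of at least 1 FPKM only in testes, at 1.28 FPKM in wild-type and 1.16 in *Tug1*-/-, and *H2-M2* only in spleen, at 9.73 and 8.79 FPKM. *H2-Bl* and *H2-T10* were likewise measured only in spleen, at 1.04 and 1.10 FPKM and at 8.40 and 8.33 FPKM. *H2-Q1* was highest in liver, at 4.87 and 6.64 FPKM (0.44), beside 1.70 and 1.78 in spleen. *H2-Q10* was at 1.66 and 1.13 FPKM in heart (-0.52), where the liver gene *Cyp2e1* was at 19.0 and 13.7 FPKM. *H2-M9*, otherwise at most at 0.0649 FPKM, was at 0.710 and 0.745 FPKM in MEFs. The *H2-Ke2* and *H2-Ke6* genes, which encode a prefoldin subunit and a steroid dehydrogenase rather than MHC chains, stayed within 0.26 on the log2 scale in all 7 tissues, and *H2-Ke6* shares 61.6% of its windows of 100 bases with the overlapping readthrough transcript Gm20427.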
